A study of Mus musculus with 12 samples.

Results

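The guidance genes described here are 10 receptors and ligands of the Slit, plexin, semaphorin and netrin systems, namely the receptors Robo1, Robo4, Plxnd1 and Plxna2 and the ligands Sema3c, Sema6a, Sema7a, Ntn4, Slit2 and Slit3. The list was drawn up by gene name, by a rule with no measured value in it but with earlier results of these data known, from the 21638 genes counted in adult mouse cortical endothelial cells, sorted for CD31 and against the platelet marker CD41 and the leukocyte marker CD45. The study had 12 libraries in 4 groups of 3. The groups were wild type (WT), Hdac2 ECKO (Hdac2lox/lox:Cdh5CreERT2, endothelial loss of a histone deacetylase), libraries labelled Ezh2 ECKO (Ezh2lox/lox:Cdh5CreERT2, endothelial loss of a Polycomb methyltransferase) and beta-catenin GOF (Ctnnb1lox/lox:Cdh5CreERT2, constitutive activation of beta-catenin in endothelium). Cdh5CreERT2 is a Cre recombinase driven by the VE-cadherin promoter, which is active in endothelium of all organs and needs tamoxifen to act. Mice received 5 doses of tamoxifen at 75 mg/kg, and brains were taken 2 months later. The labels do not state whether WT mice carried Cre or received tamoxifen, nor the age of the animals beyond adult or whether libraries came from single animals, so the spread between libraries may be in part technical.

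Guidance receptors steer growing axons and vessel sprouts by responding to secreted or membrane-bound ligands. Slit proteins bind Robo receptors such as Robo1, whereas Robo4 is a Robo family member of endothelium that helps to keep vessels stable and binds the netrin receptor Unc5b. Semaphorins signal through plexins, and most secreted class 3 semaphorins need a neuropilin (Nrp1 or Nrp2) as co-receptor. In the developing vasculature, Plxnd1 is the endothelial receptor that repels sprouts from semaphorin sources.

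The libraries held 24781070 to 36109975 counts, with 13922 to 17091 genes above 0. Levels are given as CPM, counts per 1000000 counts of the library after TMM scaling. The targeted genes gave no clear check of the labels. In WT, Hdac2 measured 129 ± 30.1 CPM, against 96.5 ± 15.2 CPM in Hdac2 ECKO and 96.2 ± 10.1 CPM in beta-catenin GOF, where it was not targeted (SD, n = 3 each). For Ezh2 the WT level was 6.75 ± 3.52 CPM, and the group labelled Ezh2 ECKO had 8.92 ± 3.36 CPM, against the direction of the label. For Ctnnb1 the WT level was 654 ± 138 CPM, and beta-catenin GOF had 583 ± 109 CPM. None of the 3 differences passed the threshold, and counts over whole genes include exons that a lox deletion leaves in place. Endothelial identity was seen in every library, since 14 endothelial markers summed to 8919 to 11851 CPM, against 58.2 to 389 CPM for 13 pericyte and smooth muscle markers. On the first principal component, which held 41.1% of the variance, replicate 2 of the libraries labelled Ezh2 ECKO (−20.9) lay within the range of WT (−55.5 to −18.1) and apart from its replicates 1 and 3 (44.0 and 40.3), and on the second component it lay apart from all 11 other libraries (−53.5, against −17.6 to 23.6). Replicate 2 of Hdac2 ECKO, at 6.28 on the first component, lay below its replicates 1 and 3 (63.6 and 46.4).

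The proximal promoters of the members differ in CpG content, and the upstream sequences of 3 members are shown because 2 of them, Robo4 and Sema7a, were above all WT libraries in each of the 9 mutant libraries, while Plxnd1 overlapped with WT in every mutant group. Sequences are from RefSeq (GRCm38.p6), which gave promoters for 9 of the 10 members. Each runs 5′ to 3′ on the gene's strand, ends just before the first annotated exon, and has its CpG dinucleotides in capitals. The intervals are chr9:37401722-37401896 (plus strand) for Robo4, chr9:57939912-57940111 (plus strand) for Sema7a and chr6:115995006-115995205 (minus strand) for Plxnd1.
Robo4: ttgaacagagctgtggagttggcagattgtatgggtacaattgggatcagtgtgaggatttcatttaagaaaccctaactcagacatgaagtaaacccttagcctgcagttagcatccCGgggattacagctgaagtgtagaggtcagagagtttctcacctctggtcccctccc
Sema7a: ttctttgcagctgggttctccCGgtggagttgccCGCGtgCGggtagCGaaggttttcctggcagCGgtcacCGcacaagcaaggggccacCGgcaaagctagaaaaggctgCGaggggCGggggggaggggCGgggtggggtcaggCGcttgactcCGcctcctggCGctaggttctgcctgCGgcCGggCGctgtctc
Plxnd1: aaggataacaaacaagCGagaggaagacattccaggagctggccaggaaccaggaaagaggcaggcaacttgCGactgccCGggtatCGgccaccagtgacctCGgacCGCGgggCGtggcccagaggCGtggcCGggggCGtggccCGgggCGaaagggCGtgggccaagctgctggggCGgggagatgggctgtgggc
The Robo4 sequence of 175 bases holds 1 CpG, against 17 for Sema7a and 15 for Plxnd1 in 200 bases each. Over the window from 250 bases before to 50 bases after the start, Robo4 holds 2 CpG and Sema7a and Plxnd1 hold 23 each, where the median over 32851 promoters is 7. The windows of Plxna2 and Sema3c lie within annotated exons and hold 25 and 42 CpG. In these windows, on both strands, the letters CCGGAA were searched, a form of the ETS factor site that contains a CpG. They occurred in 14.9% of all promoters and in 0 of the 9 members. Other forms of the ETS site were not searched. The letters CTTTGA (the core bound by TCF/LEF factors, the partners of beta-catenin) occurred in 16.0% of all promoters and in 1 member, Robo4, and GGGCGG (the SP1 box, which contains a CpG) in 35.7% of all promoters and in 7 members.

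Per kilobase of exon, which allows levels to be compared between genes, WT endothelium expressed Sema3c far above the other members, at 72.6 ± 14.5 CPM per kilobase (SD, n = 3), the 92.4th percentile of the genes tested. Robo4 (9.46 ± 0.61), Ntn4 (8.33 ± 2.54), Sema7a (7.37 ± 2.22) and Sema6a (5.66 ± 0.58 CPM per kilobase) followed, and neighbours among these 4 overlapped in their libraries. Plxna2 (1.59 ± 0.41) and Plxnd1 (1.52 ± 0.65 CPM per kilobase) formed a lower pair that also overlapped. Robo1 (0.078 ± 0.074), Slit2 (0.041 ± 0.027) and Slit3 (0.025 ± 0.015 CPM per kilobase) were close to the limit of detection, at the 4.16th percentile of tested genes or below. The order thus had 3 gaps without overlap in WT, after Sema3c, after Sema6a and after Plxnd1, and the classical Slit ligands and their receptor Robo1 were its lowest members. In Hdac2 ECKO, Sema3c again led at 106 ± 22.5 and Robo4 stood next at 16.5 ± 1.20 CPM per kilobase, while Robo1 ranked last.

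**Figure D1:**
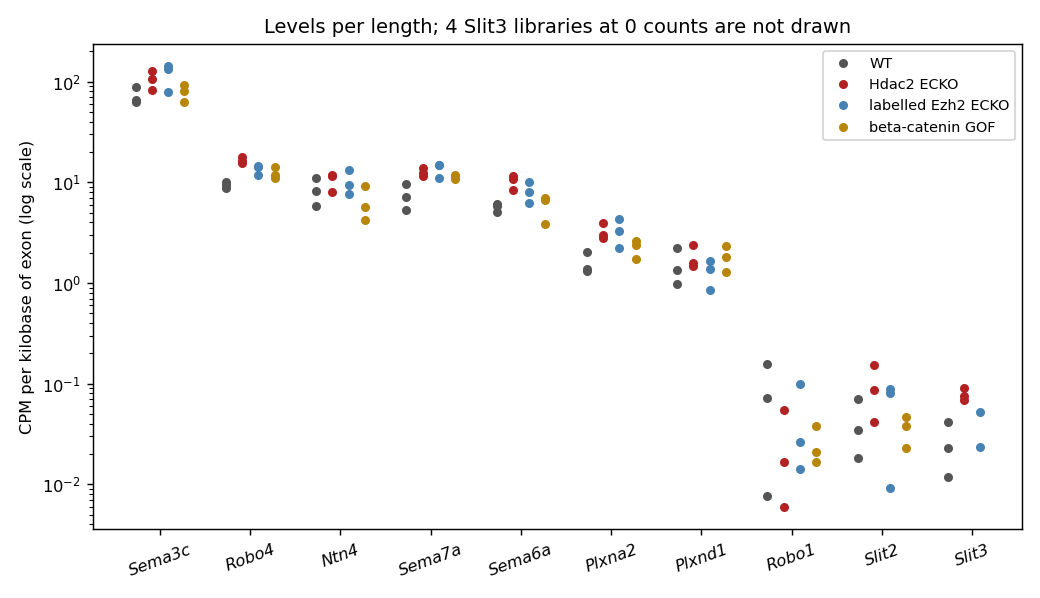
Level of each guidance gene in each of the 12 libraries, in CPM per kilobase of exon on a log axis, with 1 point per library and 1 colour per group. Sema3c lies highest in every group, and Robo1, Slit2 and Slit3 lie lowest; 4 Slit3 libraries with 0 counts are not drawn.

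Among the receptors, Robo4 (ENSMUSG00000032125.20, chromosome 9, 37401897 to 37415115, plus strand, GRCm38) was higher in Hdac2 ECKO than in WT. Its WT replicates 1, 2 and 3 were at 47.0, 53.4 and 50.1 CPM, and those of Hdac2 ECKO at 85.4, 82.0 and 94.4 CPM. The libraries labelled Ezh2 ECKO had 76.3, 62.2 and 74.9 CPM, and those of beta-catenin GOF 62.8, 75.8 and 58.2 CPM. All 9 mutant libraries lay above all 3 WT libraries, with those of Hdac2 ECKO highest. In Hdac2 ECKO the rise was 1.74-fold (log2 fold change 0.80, SE 0.22) and passed the test (edgeR adjusted p 0.040). Neither the log2 fold change of 0.50 (edgeR adjusted p 0.16, SE 0.21) in the group labelled Ezh2 ECKO nor that of 0.39 (edgeR adjusted p 0.88, SE 0.21) in beta-catenin GOF passed. Of the 10 other settings, only voom with sample quality weights called Robo4 in the group labelled Ezh2 ECKO (0.53, voom adjusted p 0.047). The 3 comparisons share their WT libraries. As these are bulk samples, fewer cells of a type and less RNA per cell cannot be told apart.

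Plxna2 (ENSMUSG00000026640.12, chromosome 1, 194618218 to 194816869, plus strand), a class A plexin that responds to Sema6a and, with a neuropilin, to class 3 semaphorins, was the other member that passed in Hdac2 ECKO. WT replicates 1, 2 and 3 were at 35.3, 22.7 and 23.8 CPM, and Hdac2 ECKO at 47.8, 51.1 and 67.2 CPM. The libraries labelled Ezh2 ECKO were at 55.9, 37.9 and 73.8 CPM, and beta-catenin GOF at 30.0, 45.0 and 41.1 CPM. Among the 9 mutant libraries, replicate 1 of beta-catenin GOF alone lay within the WT range. The rise in Hdac2 ECKO was 2.03-fold (log2 fold change 1.02, SE 0.30, edgeR adjusted p 0.045). In the group labelled Ezh2 ECKO the log2 fold change was as large, at 1.04 (SE 0.30), but did not pass (edgeR adjusted p 0.074, with 0.0029 to 0.34 over the 10 other settings, past the threshold under DESeq2, voom and without a filter), and in beta-catenin GOF it was 0.51 (SE 0.29, edgeR adjusted p 0.89).

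Both calls were close to the threshold of 0.05. Removing each library's trend on transcript length and GC content lowered Plxna2, whose exons span 17174 bases, to 0.16 in Hdac2 ECKO (edgeR adjusted p 0.77, with 0.00054 to 0.82 over the 10 other settings), while Robo4 kept 0.69 (edgeR adjusted p 0.040). Without a filter on low counts Robo4 was at 0.78 (edgeR adjusted p 0.076, with 0.0011 to 0.076 over the 10 settings), and under median-ratio scaling Plxna2 was at 0.96 (edgeR adjusted p 0.051), so each lost its call there. Across all tested genes, fold changes in Hdac2 ECKO rose with transcript length (Spearman rho 0.44 across genes, which are not independent replicates). When 1 library was left out, Robo4 passed in 2 of 6 fits (without WT replicate 3 or Hdac2 ECKO replicate 2) and Plxna2 in 1 of 6 (without Hdac2 ECKO replicate 2), with log2 fold changes of 0.72 to 0.85 and 0.84 to 1.25. Calls over all genes fell from 1157 to 0 without WT replicate 1, WT replicate 2 or Hdac2 ECKO replicate 3 and to 3 without Hdac2 ECKO replicate 1, and numbered 1872 without WT replicate 3 and 2216 without Hdac2 ECKO replicate 2.

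Plxnd1 (ENSMUSG00000030123.15, chromosome 6, 115954811 to 115995005, minus strand) did not differ from WT beyond the spread. It ranged from 7.19 to 16.3 CPM in WT, from 10.8 to 17.5 CPM in Hdac2 ECKO, from 6.26 to 12.0 CPM in the group labelled Ezh2 ECKO and from 9.41 to 17.2 CPM in beta-catenin GOF. Its log2 fold changes were 0.26, −0.23 and 0.25 in that order (SE 0.38, 0.38 and 0.37), and intervals of 2 SE ran from −0.49 to 1.01 in Hdac2 ECKO and from −0.98 to 0.52 in the group labelled Ezh2 ECKO. Robo1 (ENSMUSG00000022883.11, chromosome 16, 72308306 to 73046095, plus strand) was counted 34, 4 and 72 times in WT replicates 1, 2 and 3 and 3 to 50 times in the mutant libraries. Its log2 fold changes of −1.59, −0.75 and −1.61 had SE of 1.15 to 1.18. A difference was not detectable with these low counts and this spread between libraries.

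**Figure D2:**
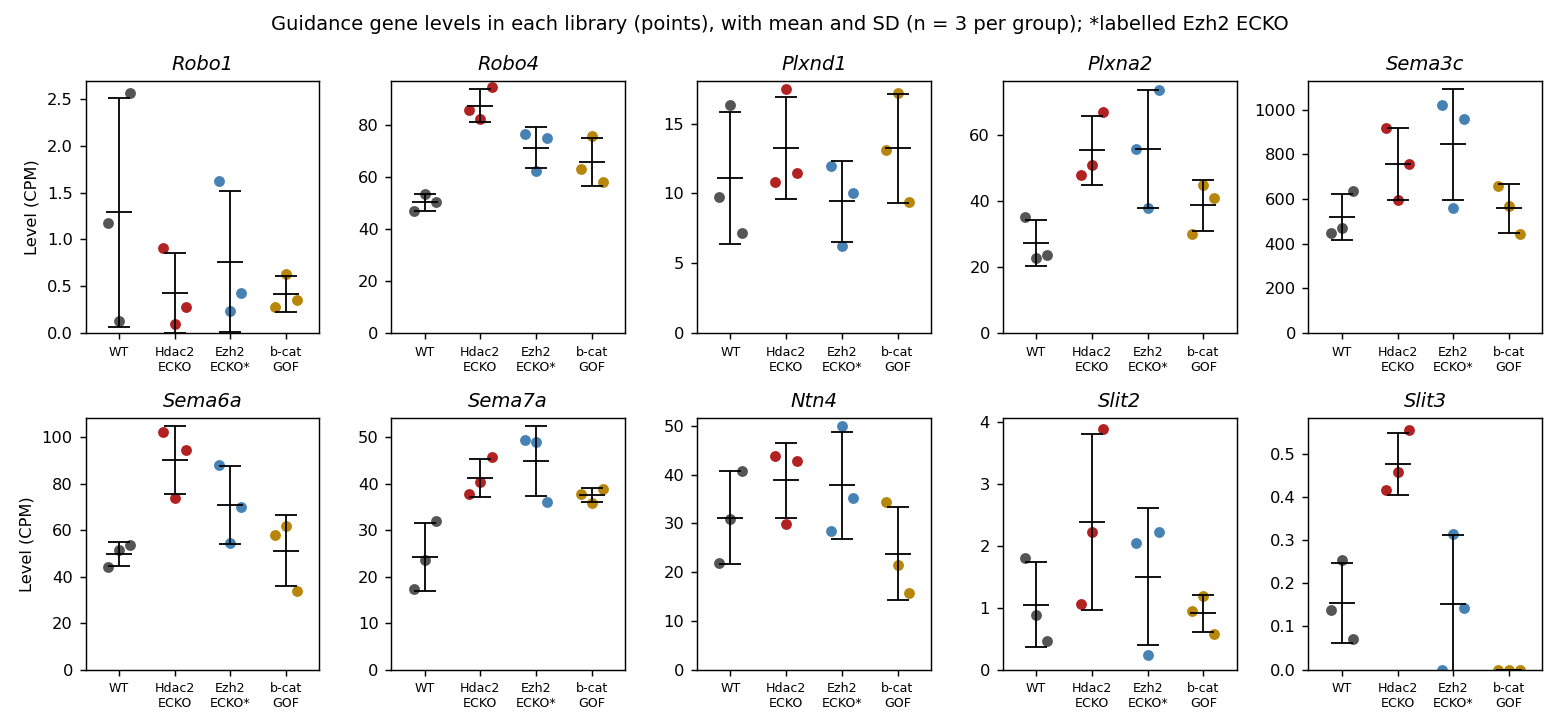
CPM of each guidance gene in every library (points), with the mean and SD of each group of 3 as bars cut at 0. Robo4 and Sema7a lie above all WT libraries in every mutant library, while Plxnd1, Ntn4, Robo1 and Slit2 overlap with WT in every group.

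Among the ligands none passed the edgeR test against WT, though several lay outside the WT range. DESeq2 called Sema6a and Sema7a in Hdac2 ECKO and Sema7a in the group labelled Ezh2 ECKO, and voom with sample quality weights called these and also Sema3c in both. Sema7a (ENSMUSG00000038264.8, chromosome 9, 57940112 to 57962865, plus strand), a semaphorin anchored to the membrane by a lipid that binds Plxnc1 and integrins, was at 17.4, 23.6 and 32.0 CPM in WT replicates 1, 2 and 3. Hdac2 ECKO had 37.7, 40.4 and 45.7 CPM, the libraries labelled Ezh2 ECKO 49.5, 49.0 and 36.1 CPM, and beta-catenin GOF 37.9, 36.0 and 38.9 CPM. As with Robo4, all 9 mutant libraries lay above all WT libraries. The log2 fold changes were 0.76, 0.88 and 0.63 (SE 0.26 each), with edgeR adjusted p-values of 0.068, 0.079 and 0.78. Sema7a is the shortest member, with 3298 bases of exon, and with the length and GC trend removed its values were 1.05 in Hdac2 ECKO and 1.25 in the group labelled Ezh2 ECKO, both past the threshold (edgeR adjusted p 0.041 and 0.043, with 0.0021 to 0.12 and 0.0083 to 0.20 over the 10 other settings of each).

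Sema6a (ENSMUSG00000019647.16, chromosome 18), a transmembrane semaphorin that binds Plxna2 and Plxna4, was at 44.0, 51.4 and 53.7 CPM in WT. Hdac2 ECKO had 102, 73.8 and 94.7 CPM. The libraries labelled Ezh2 ECKO had 88.1, 54.7 and 69.8 CPM, and beta-catenin GOF 57.9, 62.0 and 33.7 CPM. Every library of Hdac2 ECKO and of the group labelled Ezh2 ECKO exceeded WT, while beta-catenin GOF spanned the WT range. The log2 fold change of 0.86 (SE 0.27) in Hdac2 ECKO had an edgeR adjusted p of 0.057 and so missed the threshold. It passed under DESeq2 (adjusted p 0.028), voom (0.0027), library size alone (edgeR adjusted p 0.031) and the fit to the 2 groups alone (edgeR adjusted p 0.046), and without Hdac2 ECKO replicate 2 (0.94, edgeR adjusted p 0.043), but with the length and GC trend removed it dropped to 0.32 (edgeR adjusted p 0.41). In the other groups it was 0.51 and 0.04 (SE 0.27 each), with edgeR adjusted p-values of 0.26 and 0.99.

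Sema3c (ENSMUSG00000028780.13, chromosome 5, 17574281 to 17730268, plus strand), a secreted semaphorin that acts through neuropilins with plexins, was at 447, 470 and 637 CPM in WT. Hdac2 ECKO had 917, 596 and 756 CPM, the libraries labelled Ezh2 ECKO 1019, 561 and 957 CPM, and beta-catenin GOF 660, 570 and 444 CPM. Replicate 2 was the lowest in both Hdac2 ECKO and the group labelled Ezh2 ECKO and lay within the WT range in each. Its log2 fold changes were 0.54, 0.71 and 0.11 (SE 0.28 each), with edgeR adjusted p-values of 0.19, 0.15 and 0.98. Without replicate 2 of the libraries labelled Ezh2 ECKO, the value there was 0.93 and passed (edgeR adjusted p 0.027, with 0.0046 to 0.32 over the 10 other settings), as did Plxna2 at 1.25 (edgeR adjusted p 0.013), and calls over all genes rose from 129 to 2329. They numbered 1143 without WT replicate 3, but 2 without WT replicate 1 or WT replicate 2, 4 without replicate 1 of the libraries labelled Ezh2 ECKO and 7 without its replicate 3.

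Ntn4 (ENSMUSG00000020019.4, chromosome 10, 93640681 to 93747207, plus strand), a netrin of basement membranes related to laminins, overlapped with WT in every group. WT replicates had 21.8, 30.8 and 40.8 CPM, and those of Hdac2 ECKO 43.8, 29.9 and 42.8 CPM. The group labelled Ezh2 ECKO had 28.4, 49.9 and 35.2 CPM, and beta-catenin GOF 34.3, 21.4 and 15.7 CPM. Its log2 fold changes were 0.32, 0.28 and −0.39 (SE 0.34 each, edgeR adjusted p 0.53, 0.63 and 0.93). The interval of 2 SE in beta-catenin GOF ran from −1.06 to 0.29.

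The Slit ligands were barely detected. Slit2 (ENSMUSG00000031558.15, chromosome 5, 47983138 to 48307733, plus strand) was counted 52, 28 and 13 times in WT and 28, 68 and 112 times in Hdac2 ECKO, which is 1.18 higher on the log2 scale (edgeR adjusted p 0.36, SE 0.88). Its counts were 63, 6 and 62 in the group labelled Ezh2 ECKO, those of beta-catenin GOF were 28, 45 and 20, and every group overlapped with WT. Slit3 (ENSMUSG00000056427.10, chromosome 11, 35121224 to 35708507, plus strand) was counted 4, 8 and 2 times in WT, 11, 14 and 16 times in Hdac2 ECKO, 0, 8 and 4 times in the group labelled Ezh2 ECKO and 0 times in each beta-catenin GOF library. The 0 counts in beta-catenin GOF allow up to 0.0831 to 0.0926 CPM of the unscaled library totals (3 counts). With a mean count under 10, Slit3 was the only member not tested, so 9 of the 10 members were.

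Counted over the members, 2 of 9 passed higher and 0 lower in Hdac2 ECKO against WT, where 9.2% of the 12577 tested genes passed, 3.82% higher and 5.38% lower. DESeq2 called 4 of the 7 members to which it gave an adjusted p, against 24.6% of such genes, and voom with sample quality weights 5 of 9, against 42.7% of genes. In the libraries labelled Ezh2 ECKO 0 of 9 passed by edgeR, against 1.03% of all genes, and 4 had an unadjusted p under 0.05 (Plxna2, Sema7a, Sema3c and Robo4), as did 24.7% of all genes. DESeq2 called 2 of the 9 there, against 10.4% of genes with an adjusted p, and voom called 4, against 29.8%. In beta-catenin GOF 0 of 9 passed by edgeR, as did 0% of all genes, with 1 member (Sema7a) and 6.07% of all genes at an unadjusted p under 0.05 and 0 members called by DESeq2 or voom, which called 0.303% and 0.207% of genes. Values did not overlap with WT for 4 of the 9 members in Hdac2 ECKO (Robo4, Plxna2, Sema6a and Sema7a, all higher), against 37.8% of tested genes and 19.5% higher. The same count of 4, for the same genes, held in the group labelled Ezh2 ECKO (background 22%, 11.1% higher), and 2 (Robo4 and Sema7a) in beta-catenin GOF (background 12.7%, 6.83% higher).

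The median log2 fold change of the 9 members was 0.76 in Hdac2 ECKO, 0.51 in the group labelled Ezh2 ECKO and 0.11 with beta-catenin GOF, beside medians over all tested genes of 0.10, 0.05 and 0.01. With the length and GC trend removed the members' medians were 0.16, 0.40 and 0.08, beside −0.02, 0.05 and −0.01 over all genes. Scaling by library size alone moved the median over all genes in Hdac2 ECKO from 0.10 to 0.34 and the share of its calls that were higher from 41.5% to 80.4%. That share was 28.4% with the length and GC trend removed. In the libraries labelled Ezh2 ECKO the share was 33.3%, against 56.7% under library size alone and 55.6% after removing the length and GC trend.

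**Figure D3:**
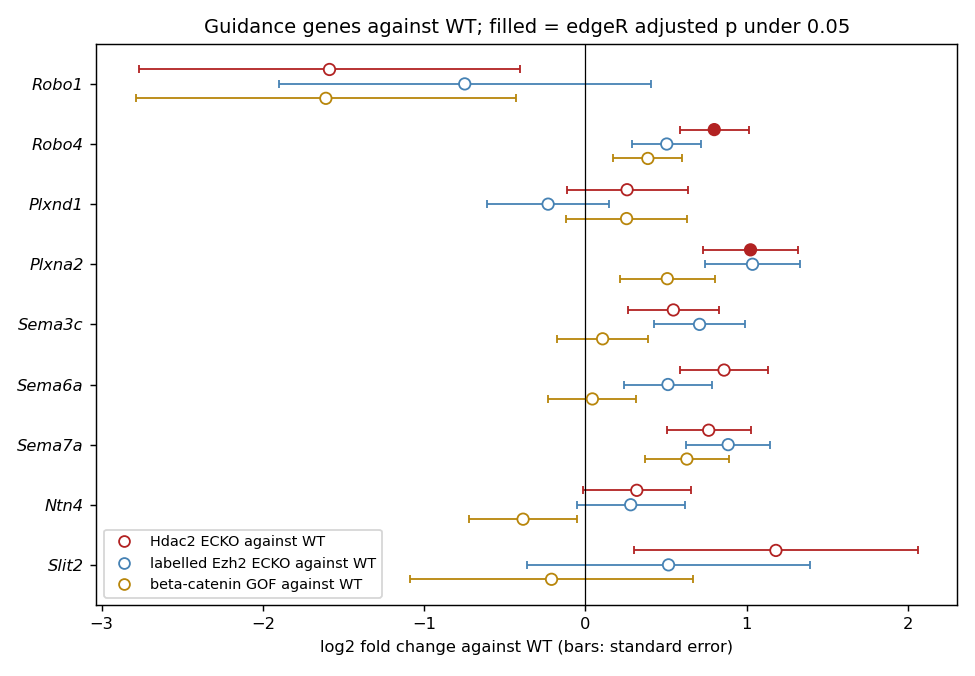
Log2 fold change against WT of the 9 guidance genes tested, with bars of 1 SE, for the 3 mutant groups. Filled points passed the edgeR test; only Robo4 (0.80) and Plxna2 (1.02) in Hdac2 ECKO are filled.

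Summed levels of markers of other cell types lay apart from WT in some mutant groups and overlapped with WT in others. The 13 pericyte and smooth muscle markers summed to 131 to 326 CPM in Hdac2 ECKO, against 68.2 to 125 CPM in WT. Of the 11 tested, 4 passed higher (Rgs5, Cspg4, Myh11 and Pdgfrb), beside 3.82% of all tested genes. In the libraries labelled Ezh2 ECKO the sum was 58.2 to 76.6 CPM, and in beta-catenin GOF 122 to 389 CPM, with Cnn1 at 0 in all WT libraries. Astrocyte markers, which summed to 24.3 to 36.2 CPM in WT, were above that range in all 9 mutant libraries, as Robo4 and Sema7a were, at 50.8 to 76.4 CPM in Hdac2 ECKO, 44.2 to 79.8 CPM in the group labelled Ezh2 ECKO and 37.9 to 54.1 CPM in beta-catenin GOF. Of the 4 tested among these 8 markers, 2 had log2 fold changes above 0 in beta-catenin GOF and 3 in each other mutant group. None passed by edgeR in any of the 3 comparisons (0 calls, with 1 at an unadjusted p under 0.05 in each). DESeq2 and voom each called Gja1 higher in Hdac2 ECKO and in the group labelled Ezh2 ECKO, and voom also called Gfap in Hdac2 ECKO, lower. S100b was at 0 in all libraries labelled Ezh2 ECKO and Aqp4 in all of beta-catenin GOF. Neuron markers (9 genes) summed to 63.7 to 112 CPM in Hdac2 ECKO and 160 to 301 CPM in WT. Their sums were 178 to 422 CPM in the group labelled Ezh2 ECKO and 118 to 248 CPM in beta-catenin GOF. Only 2 of the 9 were tested, and in Hdac2 ECKO 1 had a log2 fold change above 0 and 1 below. There edgeR called 0, and DESeq2 and voom each called Stmn2 lower, so the lower sum does not show a fall of the whole list. Microglia and leukocyte markers (10 genes) summed to 72.9 to 101 CPM in WT, 40.5 to 63.0 CPM in Hdac2 ECKO, 52.4 to 91.3 CPM in the group labelled Ezh2 ECKO and 58.1 to 83.6 CPM in beta-catenin GOF. In beta-catenin GOF 5 of them (Cx3cr1, Tmem119, Aif1, C1qb and C1qc) were at 0 in all libraries. Arterial markers (8 genes) summed to 666 to 1483 CPM in WT, 777 to 1052 CPM in Hdac2 ECKO, 379 to 661 CPM in the group labelled Ezh2 ECKO and 387 to 1219 CPM in beta-catenin GOF. Of the 6 microglia and leukocyte and 8 arterial markers tested 0 passed by edgeR in the 3 comparisons. At an unadjusted p under 0.05 there were 1 and 3 of them in Hdac2 ECKO, where the share over all genes is not given. There were 3 and 0 in beta-catenin GOF (6.07% of all genes) and 1 and 4 in the group labelled Ezh2 ECKO (24.7%). The part of these cell types in the differences of the guidance genes was not tested.

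Between mutant groups 0 of the 9 members passed in any of the 3 comparisons by edgeR. The share of all tested genes that passed was 0.0239% for Hdac2 ECKO against the group labelled Ezh2 ECKO, 0.0716% for beta-catenin GOF against Hdac2 ECKO and 0.0636% for beta-catenin GOF against the group labelled Ezh2 ECKO. DESeq2 called 0 members in each (6 of the 9 had an adjusted p for beta-catenin GOF against Hdac2 ECKO), beside 0.783%, 9.6% and 1.15% of genes in that order. Voom called 0, 3 (Ntn4, Plxna2 and Sema6a) and 1 (Sema3c), beside 0.0875%, 26.5% and 11.7% of genes. At an unadjusted p under 0.05 there were 0, 1 and 0 members, beside 8.19%, 21.1% and 13.2% of all genes. The 1 member was Sema6a, which measured 51.2 ± 15.3 CPM in beta-catenin GOF against 90.2 ± 14.6 CPM in Hdac2 ECKO (SD, n = 3 each), or −0.82 on the log2 scale (edgeR adjusted p 0.17, SE 0.27). Values did not overlap for Robo4 between Hdac2 ECKO (higher) and the group labelled Ezh2 ECKO (background 13.2%, 7.78% higher), for Robo4, Plxna2 and Sema6a between beta-catenin GOF (lower) and Hdac2 ECKO (background 32%, 15.9% lower), and for 0 of the 9 members between beta-catenin GOF and the group labelled Ezh2 ECKO (background 16.6%). Robo4 and Plxna2, which passed by edgeR in Hdac2 ECKO, differed between Hdac2 ECKO and the group labelled Ezh2 ECKO by 0.29 and −0.01 on the log2 scale (SE 0.21 and 0.29), with edgeR adjusted p-values of 0.71 and 1.00. Intervals of 2 SE ran from −0.13 to 0.72 for Robo4 and from −0.60 to 0.57 for Plxna2, so a difference between these groups was not shown.

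Of 64 other guidance genes listed by name, 46 were tested, and in Hdac2 ECKO 3 passed higher and 2 lower, beside the 9.2% of all genes given above. The 3 that rose were Plxna4, Neo1 and Itga1. Plxna4, a plexin for class 3 and class 6 semaphorins, had 1.60, 1.96 and 1.85 CPM in WT. It reached 4.01, 6.00 and 6.93 CPM in Hdac2 ECKO, a log2 fold change of 1.65 (edgeR adjusted p 0.039, SE 0.43). Neo1, the receptor neogenin of the netrin system, had 10.6, 8.77 and 4.70 CPM in WT and reached 20.4, 14.6 and 21.3 CPM in Hdac2 ECKO, 1.23 higher on the log2 scale (edgeR adjusted p 0.043, SE 0.35). For both genes the 3 values of each group did not overlap. Itga1, an integrin subunit that Sema7a can engage, had 215 ± 51.1 CPM in WT against 392 ± 73.0 CPM in Hdac2 ECKO (SD, n = 3 each), a rise of 0.87 on the log2 scale (edgeR adjusted p 0.045, SE 0.25). With the length and GC trend removed none of the 3 passed, with values of 0.94, 0.67 and −0.03. All 3 calls, and those of Rras and Gipc1 in this group, were lost without WT replicate 1, WT replicate 2, Hdac2 ECKO replicate 1 or Hdac2 ECKO replicate 3, and that of Neo1 also without WT replicate 3.

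The 2 effectors that fell in Hdac2 ECKO act inside the cell. Rras, a small GTPase that plexins inactivate, had 382, 430 and 370 CPM in WT but 106, 226 and 124 CPM in Hdac2 ECKO, a log2 fold change of −1.37 (edgeR adjusted p 0.042, SE 0.38). The Rras call held under all 10 other settings (edgeR, DESeq2 or voom adjusted p 9.0e-05 to 0.046). It held in only 2 of the 6 fits with 1 library left out. Gipc1, an adaptor that binds the tails of Nrp1 and of plexins such as Plxnd1, had 21.9, 18.8 and 9.47 CPM in WT but 2.80, 9.59 and 2.91 CPM in Hdac2 ECKO, a log2 fold change of −1.71 (edgeR adjusted p 0.043, SE 0.49). Replicate 2 of Hdac2 ECKO was the highest of its group for both genes and overlapped with WT for Gipc1. Gipc1 was also the 1 gene of the 46 that passed in the group labelled Ezh2 ECKO, where 1.03% of all genes passed, with 4.86, 3.23 and 2.77 CPM, a log2 fold change of −2.21 (edgeR adjusted p 0.048, SE 0.50). Its call was lost with the length and GC trend removed, in Hdac2 ECKO (−1.18, edgeR adjusted p 0.098, with 0.00026 to 0.10 over the 10 other settings) and in the group labelled Ezh2 ECKO (−1.56, edgeR adjusted p 0.058, with 6.3e-05 to 0.079). In the group labelled Ezh2 ECKO it passed in 2 of the 6 fits with 1 library left out, those without WT replicate 3 or without replicate 2 of the mutant.

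The further receptors and ligands named in every case did not pass by edgeR in any group. Nrp1 had 59.0 ± 15.2 CPM in WT against 92.9 ± 15.0 CPM in Hdac2 ECKO, and Nrp2 13.8 ± 3.48 against 21.8 ± 5.01 CPM (SD, n = 3 each), with log2 fold changes of 0.65 and 0.66 (SE 0.27 and 0.39). Unc5b, the netrin receptor that Robo4 binds, was at 11.0, 19.9 and 15.0 CPM in WT and at 20.1 to 31.4 CPM in Hdac2 ECKO, 25.5 to 37.2 CPM in the group labelled Ezh2 ECKO and 28.7 to 38.0 CPM in beta-catenin GOF. Its 9 mutant libraries all lay above WT, as for Robo4. Per group, such values without overlap held for 19.5%, 11.1% and 6.83% of tested genes in that order. The log2 fold changes of Unc5b were 0.78, 0.98 and 1.08 (SE 0.29 each) and did not pass (edgeR adjusted p 0.083, 0.079 and 0.54). DESeq2 called Unc5b in the group labelled Ezh2 ECKO, and voom called Unc5b and Sema3g there and in Hdac2 ECKO. Plxna1 (2.37 ± 1.24 CPM in WT), Plxnb1 (0.80 ± 0.69 CPM) and Sema3g (25.0 ± 12.2 CPM, an arterial semaphorin) overlapped with WT in every group. Robo2 and Slit1, with at most 42 and 8 counts in any library, were near the limit of detection, and Slit1 was not tested.

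By role, the median log2 fold change in Hdac2 ECKO was 1.10 for 9 other semaphorins tested, 0.99 for 7 plexins and neuropilins, 1.00 for 4 genes of the netrin axis, 0.67 for 5 of the Slit-Robo axis and 0.48 for 21 intracellular effectors. Over the 46 genes it was 0.76 in Hdac2 ECKO, 0.32 in the group labelled Ezh2 ECKO and 0.23 with beta-catenin GOF, beside 0.10, 0.05 and 0.01 over all genes. None of these medians has the length and GC trend removed, which lowered the median of the 9 members in Hdac2 ECKO from 0.76 to 0.16. In Hdac2 ECKO the values of Sema3a, Sema3e, Sema3f, Sema4b, Plxnb1 and Plxnc1 had SE of 1.08 to 1.78. In beta-catenin GOF 0 of the 46 passed by edgeR, and DESeq2 and voom with sample quality weights called 0 each. There 4 had an unadjusted p under 0.05, beside 6.07% of all genes. For Hdac2 ECKO DESeq2 called 4 higher and 3 lower of the 32 with an adjusted p, beside 24.6% of such genes. Voom called 12 higher and 4 lower of the 46, beside 42.7% of genes. With the group labelled Ezh2 ECKO, DESeq2 called 1 higher and 1 lower of the 44 with an adjusted p, beside 10.4%. Voom called 5 higher and 3 lower there, beside 29.8%.

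**Figure D4:**
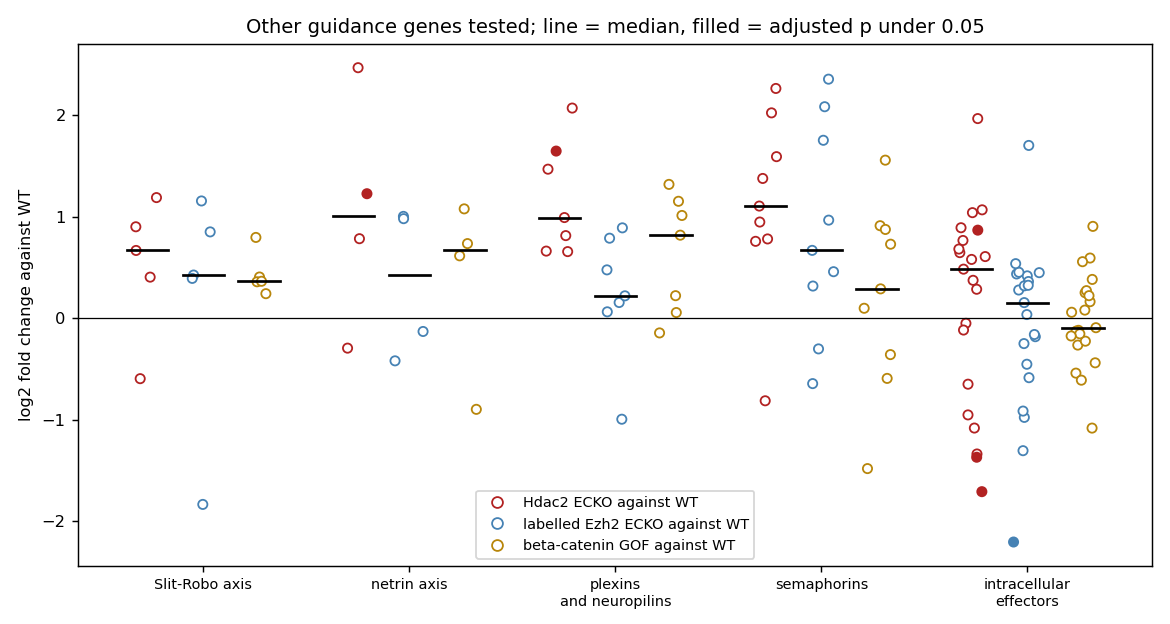
Log2 fold change against WT of the 46 other guidance genes tested, grouped by role, with 1 point per gene, a line at each median and filled points for genes that passed the edgeR test. The filled points are Plxna4, Neo1 and Itga1 (higher) and Rras and Gipc1 (lower) in Hdac2 ECKO, and Gipc1 in the group labelled Ezh2 ECKO.

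Across the 12 libraries the levels of several members varied together. Pearson's r of log2 CPM was 0.83 between Robo4 and Sema6a, 0.83 between Sema3c and Sema6a and 0.80 between Robo4 and Plxna2, while Plxnd1 had r of 0.44 at most with any other member tested. The libraries share their groups, their depth and the trend on transcript length, so these values are descriptions. For the 4 members with the highest mean CPM, the tested genes most like each over the 12 libraries were Cep170 and Coq8a (r 0.97 each) for Sema3c, Pald1 (r 0.97) and Hspg2 (r 0.94) for Robo4, Gpatch8 and Zscan26 (r 0.96 each) for Sema6a, and Gramd4 and Unc45b (r 0.94 each) for Plxna2. None of these 8 genes is among the guidance genes listed.

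**Figure D5:**
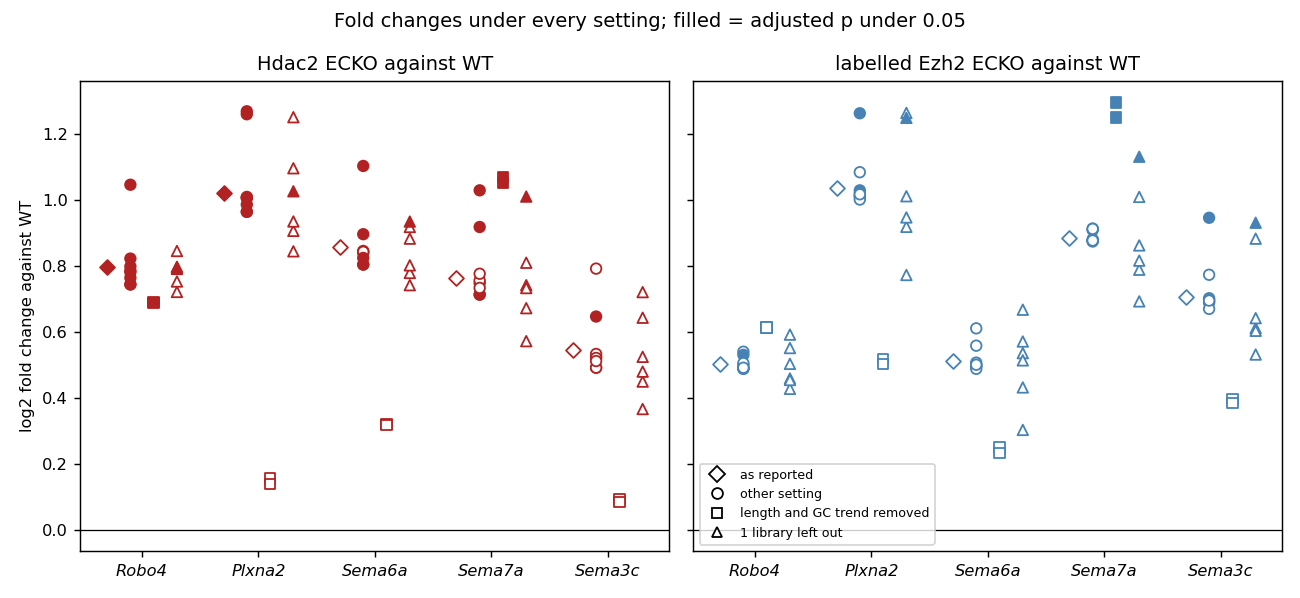
Log2 fold change of Robo4, Plxna2, Sema6a, Sema7a and Sema3c against WT under every setting, in Hdac2 ECKO and in the group labelled Ezh2 ECKO, with filled symbols where the adjusted p was under 0.05. All values lie above 0; in Hdac2 ECKO, Plxna2 drops to 0.16 and Sema3c to 0.09 with the length and GC trend removed, while Robo4 stays at 0.69.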

How the data were processed

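Per the submitters' processing notes, reads were handled with FastQC, cutadapt, STAR, featureCounts and DESeq2 on mm10, with no versions or settings given in the sources used here. The library kit was SMART-Seq v4 PLUS and the sequencer a NovaSeq X Plus with paired ends, per the labels' protocols. The authors' deposited table is titled as normalized, but its values were treated as raw counts, since they are whole, library totals differ and median-ratio size factors of the libraries run from 0.841 to 1.30. This was inferred from the values. Of values from 10 to 50, 79.5% to 84.0% are even, so both reads of a pair may have been counted, and 2 counts may then stand for 1 fragment. The plan for normalized values (limma on log2 values) was therefore not used. Positions matched GENCODE M21 for 99.1% of genes. Counting by strand is not given in the sources used here; the exons of the 10 members overlap no other gene.

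Counts were tested with edgeR 4.0.16 (R 4.3.3; quasi-likelihood F test, TMM scaling, 1 term per group over all 12 libraries, no block) for genes whose mean count reached 10, with Benjamini-Hochberg adjustment over the 12577 genes of each of 6 contrasts and a threshold of 0.05. The SE was derived from the F statistic. Alternatives used limma 3.58.1 (voom), DESeq2 1.42.0, other scalings and filters, a length and GC offset, the 2 groups alone, a replicate block and leaving out each library. On simulated counts for Hdac2 ECKO against WT, 200 of 12577 genes were changed. There edgeR recovered 9.52% of genes changed 2-fold and 51.6% of those changed 4-fold. Of its calls on these simulated counts, 4.84% were unchanged genes. The share of unchanged genes among the calls on the measured libraries was not tested.

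The reported fits paired no libraries by the replicate numbers in the titles, and a replicate block was run only as an alternative. For Hdac2 ECKO against the group labelled Ezh2 ECKO, deviations of same-numbered libraries correlated at 0.19, 0.43 and 0.13. Those of differently numbered libraries ran from −0.30 to 0.21, so a pairing was not shown. Replicate pairs within a group differed by more than sampling noise. The floor of 3 counts corresponds to 0.0831 to 0.121 CPM, for counting error only, since reads carry no molecular identifiers, and would stand for fewer fragments if both reads of a pair were counted.

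The members and gene lists were chosen with earlier results of these data known. Genes named are the 10 members, the 3 targeted genes, 8 further guidance genes in every case, listed guidance genes past the threshold, and the 2 genes most like each of the 4 members with the highest mean CPM.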

Additional observations from a re-analysis of the deposited data

Results flagged for a closer look

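Slit3, which had a mean count under 10 and was not tested, differed from WT with opposite signs in 2 groups. Every Hdac2 ECKO library (11, 14 and 16 counts) lay above every WT library (4, 8 and 2 counts), a difference in mean CPM of 0.322. Every beta-catenin GOF library was at 0 counts, a difference in mean CPM of −0.154. Counts of 0 allow up to 0.0831 to 0.0926 CPM, and WT replicate 3 had 2 counts, so a level below every WT library is not shown. The difference between these effects was not tested.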

How the results depend on the processing

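Members called in Hdac2 ECKO against WT (2 as reported) numbered 4 under library size alone and under DESeq2, 5 under voom with sample quality weights, and 1 under median-ratio scaling (Robo4) or no filter (Plxna2). The fit to the 2 groups alone called 3 (Robo4, Plxna2 and Sema6a). Removing the length and GC trend, with or without a replicate block, also gave 2, but these were Robo4 and Sema7a. With 1 library left out the count ran from 0 to 3. In the libraries labelled Ezh2 ECKO against WT (0 as reported) the count was 1 without a filter and with the length and GC trend removed, with or without a replicate block, 2 under DESeq2, 4 under voom, and 0 to 2 with 1 library left out; Sema7a passed without WT replicate 3. Voom gave 3 for beta-catenin GOF against Hdac2 ECKO and 1 for beta-catenin GOF against the group labelled Ezh2 ECKO, where 0 were reported. The replicate block gave 2 members in Hdac2 ECKO and 0 in each of the 5 other contrasts, as reported.

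Direction changed for values that had not passed. Voom gave 1.25 for Robo1 in the libraries labelled Ezh2 ECKO, 0.41 for Robo1 in beta-catenin GOF and −0.11 for Plxnd1 in Hdac2 ECKO. The length and GC correction gave −0.10 for Sema6a in beta-catenin GOF (−0.13 with the replicate block), −0.39 for Slit2 in the libraries labelled Ezh2 ECKO (−0.38) and, for a gene that had passed, −0.028 for Itga1 in Hdac2 ECKO (−0.017). With 1 library left out, values ran from −1.94 to 0.23 for Robo1, from −0.47 to 0.16 for Plxnd1 (libraries labelled Ezh2 ECKO), from −0.048 to 0.65 for Plxnd1 (Hdac2 ECKO), and in beta-catenin GOF from −0.032 to 0.28 for Sema3c, from −0.12 to 0.27 for Sema6a and from −0.56 to 0.42 for Slit2. The cause was not tested.

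Calls over all genes in Hdac2 ECKO (1157) were 1826 under library size alone, 2279 without a filter, 2553 under DESeq2, 5374 under voom and 1832 with the replicate block. In the libraries labelled Ezh2 ECKO (129) they were 30, 1367, 1280, 3743 and 536 in the same order, 76 under median-ratio scaling, 219 at a mean count of at least 50, 378 with the length and GC trend removed (505 with the block) and 17 with the 2 groups alone. In beta-catenin GOF (0) they were 157 without a filter, 38 under DESeq2 and 26 under voom. Other pseudocounts under limma were not run, since the values are counts. Low counts limit Robo1, Slit2 and Slit3, and the WT libraries also spread 20.2-fold for Robo1 and 3.90-fold for Slit2.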
